A study of Mus musculus with 6 samples.

Results

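The distal end of mouse chromosome 10 carries a tight array of odorant receptor genes, numbered Olfr763 to Olfr827. The rule took every row of the deposited count table whose symbol lay between Olfr763 and Olfr827 in number and had no pseudogene suffix. It found 57 genes among 53686 rows, which is 57 of the 980 rows counted as class II receptors by their Olfr number. Main olfactory epithelium was dissected from mice of the C57BL/6J strain, and the counts are those of 3 libraries of mice hemizygous for the 5x21-OR1A1 transgene and 3 libraries of wild-type mice. The transgene carries the human odorant receptor OR1A1, and by its title the study asks about receptor choice, using a highly represented transgene. The transgene's own RNA was not analysed here. Neither the age nor the identity of the animals is given in the labels, but Xist and Ddx3y counts showed both sexes in each group, so libraries of a group did not all come from 1 animal. A p-value here sets the difference between genotypes only against how far libraries of a group differ. Promoter details of the transgene and the number of lines used are not stated in the labels.

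Odorant receptors are G-protein-coupled receptors of the nasal epithelium. Each mature olfactory sensory neuron is thought to express 1 allele of 1 receptor gene, so the abundance of a receptor's RNA in whole epithelium depends on how many neurons chose it and on how much RNA each of them holds. In this bulk tissue, fewer neurons expressing a receptor and less receptor RNA per neuron cannot be told apart. Mammalian receptors fall into class I, related to the receptors of fish, and the far more numerous class II, found mainly in land vertebrates. Genes of a cluster arose largely by local duplication, which is why neighbours are often close copies. The MOR nomenclature groups them into subfamilies by similarity of their sequence. The results are ordered by these subfamilies.

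All 57 members were found in the GENCODE vM21 annotation, between positions 129010791 and 130214403 of chromosome 10 (GRCm38), a span of 1204 kb. The plus strand carried 27 and the minus strand 30 of them. GENCODE listed 56 as protein-coding and Olfr779 as a polymorphic pseudogene. RefSeq synonyms gave a MOR name to 56 members, in 13 subfamilies, and none to Olfr765. The lowest MOR family number among them was 108, whereas class I receptors are the MOR families up to 42, so every name is that of a class II family. Coding sequences were 924 to 984 bases long, with a median of 936, and exonic lengths ran from 929 to 8466 bases.

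Stretches of 5 pairs of members show how alike the copies are, which bears on how far reads could be assigned to one of them. Each is a run of 100 coding bases that starts in a stretch conserved between receptors, at the inner end of the third membrane-spanning helix, printed 5′ to 3′ from the GENCODE vM21 transcripts (GRCm38). Capitals mark bases that differ from the partner it is paired with. Olfr792 and Olfr798, MOR108 receptors with 95.1% identity over the whole coding sequence, differed at 5 of the 100 bases.
Olfr792, chr10:129540884-129540983, plus strand: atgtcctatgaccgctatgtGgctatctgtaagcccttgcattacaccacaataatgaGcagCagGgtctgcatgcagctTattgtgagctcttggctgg
Olfr798, chr10:129625615-129625714, minus strand: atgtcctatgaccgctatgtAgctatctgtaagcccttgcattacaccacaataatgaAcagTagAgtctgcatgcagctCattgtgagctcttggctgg
The other MOR108 pair, Olfr809 and Olfr813, had 91.3% coding identity and differed at 1 base of the stretch.
Olfr809, chr10:129776261-129776360, plus strand: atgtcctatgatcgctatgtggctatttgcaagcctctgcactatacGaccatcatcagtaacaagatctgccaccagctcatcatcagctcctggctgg
Olfr813, chr10:129856865-129856964, plus strand: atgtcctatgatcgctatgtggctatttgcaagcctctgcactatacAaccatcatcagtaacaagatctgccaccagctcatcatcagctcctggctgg
Olfr810 and Olfr816 of MOR113 had 94.4% coding identity and also differed at 1 base.
Olfr810, chr10:129791143-129791242, minus strand: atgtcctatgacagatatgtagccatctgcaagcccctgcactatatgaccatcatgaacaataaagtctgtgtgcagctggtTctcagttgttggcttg
Olfr816, chr10:129911832-129911931, minus strand: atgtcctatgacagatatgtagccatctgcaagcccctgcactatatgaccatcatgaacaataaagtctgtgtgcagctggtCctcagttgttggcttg
Olfr825 and Olfr826 of MOR210 had 94.7% coding identity and the same 100 bases, so no capitals appear.
Olfr825, chr10:130162865-130162964, minus strand: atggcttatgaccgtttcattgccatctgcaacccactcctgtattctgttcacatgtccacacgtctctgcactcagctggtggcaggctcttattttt
Olfr826, chr10:130180419-130180518, minus strand: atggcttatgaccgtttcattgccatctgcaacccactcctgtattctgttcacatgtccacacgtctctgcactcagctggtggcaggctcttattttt
Olfr777 and Olfr800 of MOR114 had 96.8% coding identity and differed at 3 bases.
Olfr777, chr10:129268880-129268979, minus strand: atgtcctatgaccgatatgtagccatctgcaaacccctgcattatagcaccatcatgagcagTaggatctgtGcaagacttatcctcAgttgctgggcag
Olfr800, chr10:129660150-129660249, plus strand: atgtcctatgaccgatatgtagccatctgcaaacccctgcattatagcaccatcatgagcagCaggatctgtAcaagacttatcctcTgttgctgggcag

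A read of 100 bases from the stretch that Olfr825 and Olfr826 share fits both genes equally well. Across the cluster, 25 pairs of members had at least 90% coding identity, and the median identity of a member to its nearest relative was 92.5%. Over whole transcripts, 5′ and 3′ untranslated exons included, 19 of the 57 members shared no run of 100 bases with any other annotated gene, 38 shared at least 1, and 17 shared over 5% of their runs. The shared part was 10.4% in Olfr826 and 20.6% in Olfr819, whose copies are Olfr247 and Gm10310. How the authors' counting treated reads with several matches is not given in the sources used here, so values of these genes are less certain than those of receptors such as Olfr808 and Olfr811, which shared none.

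The cluster as a whole was less abundant in transgenic epithelium. Its summed level was 92.6, 97.0 and 86.5 CPM (counts scaled to a library size of 1e+06 after TMM normalization) in the 5x21-OR1A1 libraries, against 133.6, 163.1 and 152.2 CPM in the wild-type libraries. The groups did not overlap, with means of 92.0 ± 5.25 CPM in 5x21-OR1A1 and 149.6 ± 14.9 CPM in wild-type (SD, n = 3 each) and a log2 ratio of -0.70 (SE 0.10). These sums rest on 3398, 2826 and 2349 member counts in 5x21-OR1A1 and 4206, 5940 and 4399 in wild-type, out of library totals between 27506217 and 35804712 counts. Nearly every member was detected in both genotypes: the number of members with at least 10 counts was 49 in 5x21-OR1A1 library 1, 49 in 2 and 49 in 3, against 51, 53 and 50 in the wild-type libraries.

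The fall of the sum was close to that of the class II receptors outside the cluster, whose log2 ratio was -0.66 (SE 0.15). The cluster supplied 4.37, 4.58 and 4.49% of class II counts in the 5x21-OR1A1 libraries, against 4.94, 4.38 and 4.49% in the wild-type libraries. These shares overlapped, and their log2 ratio was -0.04 (SE 0.06), so no difference in share larger than the spread between libraries was found. Markers of mature olfactory sensory neurons moved with the cluster. Omp, the olfactory marker protein that mature neurons express at high level, had 6700, 7005 and 6655 CPM in 5x21-OR1A1, against 9695, 12517 and 12341 CPM in wild-type, a log2 fold change of -0.76 (SE 0.14, edgeR adjusted p = 0.0305). Summed over 15 mature neuron markers, Omp included, the level was 14084 to 15490 CPM in 5x21-OR1A1 and 20069 to 26734 CPM in wild-type. Of the mean sum of these 15 markers, 14569 CPM in 5x21-OR1A1 and 23502 CPM in wild-type, Omp alone made up 6787 and 11518 CPM. Per 1000 counts of these markers, the cluster had 6.55, 6.26 and 6.14 counts in 5x21-OR1A1 and 6.66, 6.10 and 6.42 in wild-type, ranges that overlapped, with a log2 ratio of -0.02 (SE 0.05).

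**Figure D1:**
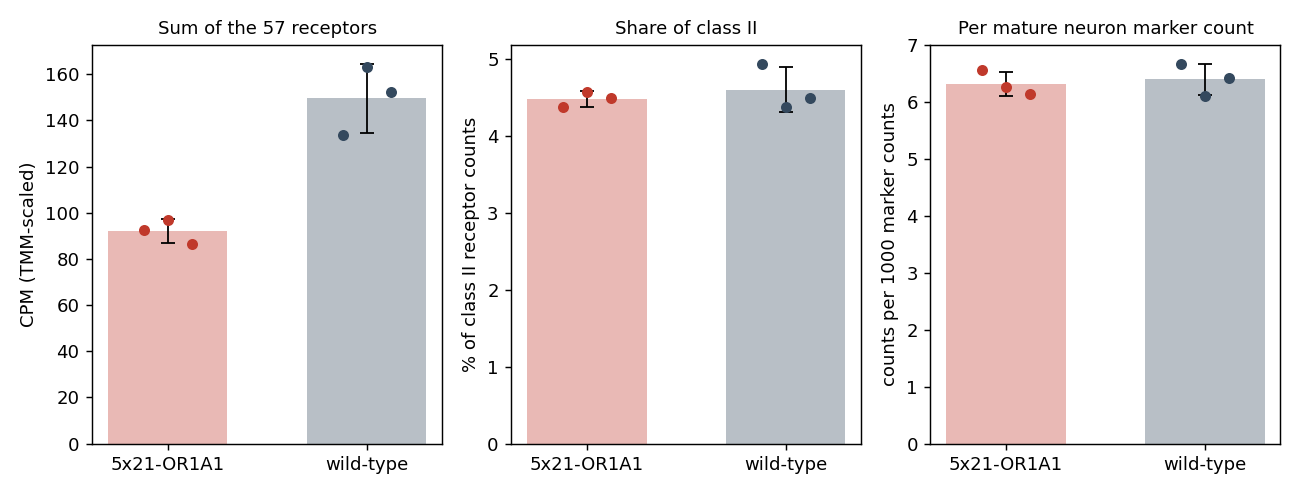
Summed level of the 57 receptors in CPM, their share of class II counts in percent, and their counts per 1000 mature neuron marker counts; points are the 3 libraries of each genotype and bars the means with SD. The CPM sums stand apart between genotypes (86.5 to 97.0 in 5x21-OR1A1, 133.6 to 163.1 in wild-type), while the shares and the marker-relative values overlap.

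Gene by gene the cluster was uneven: part of its receptors fell well beyond the sum and others stood at or above their wild-type level. Of 51 members with enough counts to test, 14 were lower in 5x21-OR1A1 at an edgeR adjusted p under 0.05 and 0 were higher. Those 14 are 27.5% of the tested members, against 2.20% of all 19267 genes called lower, 0.519% called higher and 2.71% called in either direction. Among the other class II receptors 155 of 719 were lower, 21.6%, and 17 were higher, 2.36%. At an unadjusted p under 0.05, not counted over all genes, edgeR had 24 members lower and 6 higher. Adjusted calls by DESeq2 gave 17 members lower and 3 higher, against 902 lower and 310 higher of all 19267 genes. By limma-voom 13 members were lower and 2 higher, against 398 and 105 of all genes. The median log2 fold change of the 51 was -0.58, with quartiles of -1.34 and 0.32, against -0.65 for the other class II receptors and 0.02 for all genes. With each library scaled to its mature neuron markers, all genes had a median of 0.69, and the new scale turned the sign of the cluster's median, to 0.11, which is 0.58 below that of all genes. On that scale 14310 of the 19267 genes were called higher and 257 lower, and among the 51 members 15 were higher and 11 lower, all 11 among the 14.

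The 3 values of 5x21-OR1A1 lay below all 3 of wild-type in 22 members and above them in 7, and the groups overlapped in the remaining 22. Over all tested genes, 12.5% lay wholly below and 11.4% wholly above. Some tested members were scarce. Olfr765, Olfr767, Olfr785 and Olfr790 reached 10 counts in every library of wild-type but not of 5x21-OR1A1. The reverse held for Olfr770, Olfr780 and Olfr782. The 6 members left untested were Olfr773, Olfr774, Olfr779, Olfr781, Olfr803 and Olfr823. Olfr773 had 1 count in 1 library, a 5x21-OR1A1 one, and Olfr779 had 2 counts in that same library, with 0 in every other. The other 4 untested members had between 1 and 32 counts in any library.

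**Figure D2:**
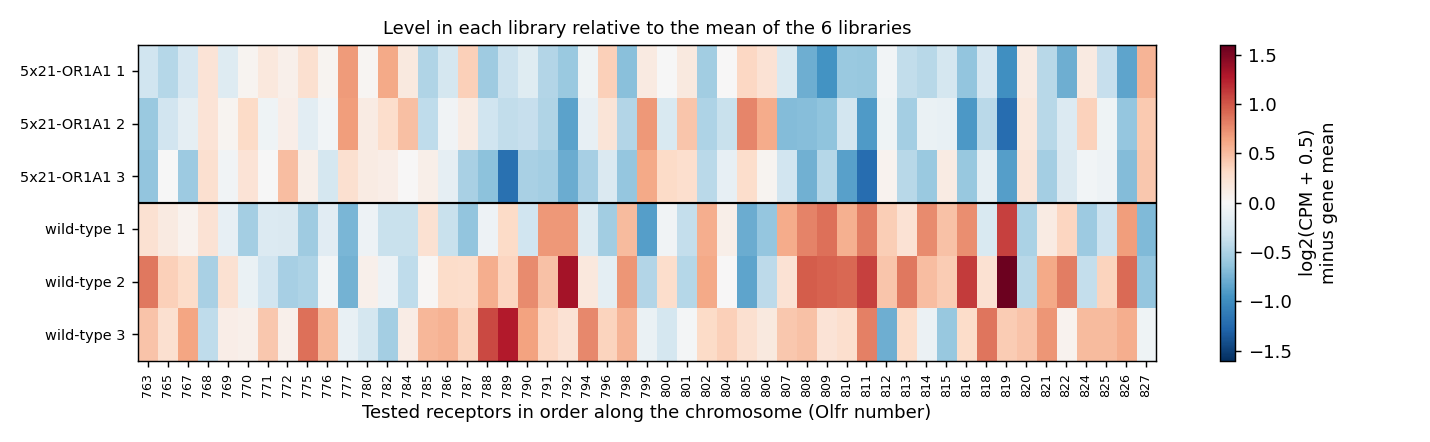
Each column is 1 of the 51 tested receptors in chromosomal order and each row a library, 5x21-OR1A1 above wild-type; colour is log2(CPM + 0.5) minus the gene's mean over the 6 libraries. Blue above red on the right marks receptors from Olfr807 to Olfr819 that are lower in 5x21-OR1A1, and the columns for Olfr777, Olfr799, Olfr805 and Olfr827 show the reverse.

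In the small MOR108 subfamily every member fell. Scaled to mature neuron markers each was still below 0, but Olfr813 no longer passed (log2 fold change -0.31, adjusted p = 0.162). It has 4 members, Olfr792, Olfr798, Olfr809 and Olfr813, which form 2 pairs of near copies and lie scattered over the middle and distal cluster. Together they had 8.34, 8.20 and 8.65 CPM in 5x21-OR1A1, against 19.8, 27.2 and 17.2 CPM in wild-type, so the lowest wild-type sum was well above the highest 5x21-OR1A1 sum. All 4 were tested and all 4 were lower, with a median log2 fold change of -1.56. Reads could be exchanged within each pair, but a read moved between partners stays within the subfamily sum.

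Olfr798 had 1.31, 1.58 and 1.36 CPM in 5x21-OR1A1 and 3.56, 4.17 and 3.67 CPM in wild-type, with tight values in both groups (log2 fold change -1.42, SE 0.18, adjusted p = 0.00808). Its near copy Olfr792 had 1.09, 0.823 and 0.884 CPM in 5x21-OR1A1 and 3.4, 5.55 and 2.32 CPM in wild-type. Its fall was larger but less even, with wild-type library 2 highest and wild-type library 3 lowest (-2.0, SE 0.34, adjusted p = 0.0246). Olfr809 had 1.01, 1.37 and 1.62 CPM in 5x21-OR1A1 and 4.86, 5.11 and 2.91 CPM in wild-type (-1.70, SE 0.28, adjusted p = 0.0227). Olfr813, the most abundant member per kilobase in wild-type tissue, had 4.93, 4.43 and 4.79 CPM in 5x21-OR1A1 and 7.94, 12.3 and 8.30 CPM in wild-type (-1.01, SE 0.19, adjusted p = 0.0352). The groups did not overlap for any of the 4. Leaving out any 1 of the 5x21-OR1A1 libraries ended the calls of Olfr792, Olfr809 and Olfr813 (adjusted p = 0.0739 to 0.147), and leaving out 5x21-OR1A1 library 1 or 3 that of Olfr798 (0.0539 and 0.0568). Without wild-type library 2 the call of Olfr809 also ended (adjusted p = 0.0662). With sex as a covariate Olfr792 and Olfr813 did not pass (adjusted p = 0.0626 and 0.0806).

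MOR113 and MOR112 also lay wholly below 0, except for 1 MOR113 receptor above 0 when scaled to mature neuron markers. Of 5 tested MOR113 receptors, Olfr810 and Olfr816 passed the test and the other 3 did not, with a median of -1.25 over the 5. Olfr810, the member with most counts in all, had 4.93, 6.24 and 4.01 CPM in 5x21-OR1A1 and 11.7, 15 and 9.41 CPM in wild-type (log2 fold change -1.25, SE 0.22, adjusted p = 0.0268). Its near copy Olfr816 had 1.36, 1.03 and 1.40 CPM in 5x21-OR1A1 and 4.35, 5.79 and 3.04 CPM in wild-type (-1.80, SE 0.28, adjusted p = 0.0164). Both sat apart between genotypes, and in both wild-type library 2 was highest and wild-type library 3 lowest. Of the other 3, Olfr814 and Olfr822 were below the wild-type libraries in each 5x21-OR1A1 library without passing (adjusted p = 0.155 and 0.142), and Olfr815 overlapped. Of 2 MOR112 receptors, Olfr808 had 3.16, 3.43 and 3.20 CPM in 5x21-OR1A1 and 10.5, 11.8 and 8.23 CPM in wild-type (-1.64, SE 0.17, adjusted p = 0.00354). This was the lowest adjusted p of the cluster, with an even level across the 5x21-OR1A1 libraries. The second, Olfr790, had a log2 fold change of -1.40 that did not pass (SE 0.48, adjusted p = 0.195). It was scarce, with 18, 11 and 8 counts in 5x21-OR1A1 and 13, 52 and 37 in wild-type. The calls of Olfr810 and Olfr816 ended without any 1 of the 5x21-OR1A1 libraries (adjusted p = 0.0517 to 0.119), and that of Olfr810 also without wild-type library 2 (0.0631) and with sex as a covariate (0.0689).

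The 8 tested MOR111 receptors, which lie next to one another in several stretches of the cluster, all had fold changes below 0, from -0.01 in Olfr787 to -1.45 in Olfr789, although 2 were above 0 with plain library totals and 4 when scaled to mature neuron markers. Of the 8, Olfr802 passed, while Olfr785 was scarce, with 4, 4 and 11 counts in 5x21-OR1A1 and 16, 13 and 21 in wild-type. Olfr802 had 0.763, 0.823 and 0.884 CPM in 5x21-OR1A1 and 2.29, 2.33 and 1.80 CPM in wild-type (log2 fold change -1.38, SE 0.22, adjusted p = 0.0198). Its groups did not overlap, and its call ended without any 1 of the 5x21-OR1A1 libraries or without wild-type library 2 (adjusted p = 0.0617 to 0.111). Olfr789 had 3.27, 3.12 and 1.58 CPM in 5x21-OR1A1 and 5.40, 5.57 and 11 CPM in wild-type, with wild-type library 3 far above the others (adjusted p = 0.0891). The groups of Olfr789 did not overlap, although its wild-type values spread widely (log2 fold change -1.45, SE 0.36). Olfr788 had a like pattern, at 1.83, 2.26 and 1.69 CPM in 5x21-OR1A1 and 2.76, 4.67 and 6.71 CPM in wild-type (-1.29, SE 0.32, adjusted p = 0.0885). The whole subfamily summed to 12.7, 12.7 and 10.2 CPM in 5x21-OR1A1 and 15.8, 20.7 and 31.1 CPM in wild-type.

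The 2 largest subfamilies, MOR114 and MOR110, were mixed. Of 11 tested MOR114 receptors, 8 had fold changes above 0 and 3 below, with a median of 0.41, and 1, Olfr791, was lower. Olfr791 had 4.74, 4.70 and 4.49 CPM in 5x21-OR1A1 and 11.2, 9.56 and 8.68 CPM in wild-type (log2 fold change -1.08, SE 0.14, adjusted p = 0.00808). It was one of the most even members within each genotype, and second only to Olfr813 per kilobase in wild-type tissue. Without 5x21-OR1A1 library 3 its adjusted p was 0.0567, and scaled to mature neuron markers its log2 fold change was -0.42 (adjusted p = 0.103). Its MOR114 relative Olfr777 had the highest fold change of the cluster, at 4.28, 4.25 and 3.06 CPM in 5x21-OR1A1 and 1.30, 1.26 and 2.25 CPM in wild-type (1.28, SE 0.28, adjusted p = 0.0566). Olfr799 had 2.07, 3.26 and 3.02 CPM in 5x21-OR1A1 and 0.762, 1.18 and 1.66 CPM in wild-type (1.21, SE 0.32, adjusted p = 0.105). Neither passed with edgeR, although in both the lowest 5x21-OR1A1 value was above the highest wild-type value, and Olfr777 passed without wild-type library 3 (adjusted p = 0.0234). The MOR114 sums overlapped, at 21.2, 22.3 and 20.6 CPM in 5x21-OR1A1 and 21.9, 22.1 and 26.4 CPM in wild-type. Scaled to mature neuron markers, 10 of the 11 were above 0.

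MOR110 repeated this split. Of 9 tested members, 5 were above 0 and 4 below, with a median of 0.54, and 1, Olfr811, was lower. Olfr811 had 2.34, 1.82 and 1.36 CPM in 5x21-OR1A1 and 7.11, 8.76 and 7.09 CPM in wild-type (log2 fold change -2.04, SE 0.22, adjusted p = 0.00403). Its neighbour Olfr812, the most abundant member per kilobase in transgenic tissue, had 4.17, 4.08 and 4.49 CPM in 5x21-OR1A1 and 5.81, 6.01 and 2.28 CPM in wild-type (-0.15, SE 0.33, adjusted p = 0.859). The 2 genes are adjacent among the members, and their groups were apart in Olfr811 and overlapping in Olfr812. Of the other MOR110 receptors, 3 lay above wild-type in each 5x21-OR1A1 library without passing, namely Olfr782 (1.22, SE 0.37, adjusted p = 0.149), Olfr801 (0.67, SE 0.20, adjusted p = 0.149) and Olfr805 (1.07, SE 0.41, adjusted p = 0.243). Olfr782 is scarce, with 42, 24 and 18 counts in 5x21-OR1A1 and 11, 19 and 7 in wild-type.

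Of the 4 tested MOR210 receptors at the distal end, Olfr826 was lower and Olfr827 stood higher without passing. Olfr826 had 0.981, 1.24 and 1.14 CPM in 5x21-OR1A1 and 3.72, 4.48 and 3.49 CPM in wild-type (log2 fold change -1.80, SE 0.20, adjusted p = 0.00442). Its near copy Olfr825, with which it shares the run of 100 bases given earlier, had 0.60, 0.858 and 0.847 CPM in 5x21-OR1A1 and 0.635, 1.32 and 1.52 CPM in wild-type, which overlapped (-0.60, SE 0.37, adjusted p = 0.460). Olfr827, the last gene of the cluster, had 3.65, 3.29 and 3.31 CPM in 5x21-OR1A1 and 1.24, 1.35 and 2.21 CPM in wild-type (1.10, SE 0.25, adjusted p = 0.0680), and it passed without wild-type library 3 (0.0205). Thus members of 1 small subfamily lay on both sides of 0.

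Receptors that stand alone or in pairs in their subfamily included the deepest fall. Olfr819 of MOR265 had 1.06, 0.823 and 1.18 CPM in 5x21-OR1A1 and 6.10, 8.65 and 3.60 CPM in wild-type (log2 fold change -2.58, SE 0.34, adjusted p = 0.00867). Wild-type values were 5.98 times those of 5x21-OR1A1 on average, and wild-type library 3 was again the lowest of its group. Olfr247 and Gm10310, the genes that share sequence with Olfr819, had 1 count and 0 counts in all. Without 5x21-OR1A1 library 1 or 2 the adjusted p of Olfr819 was 0.0539 or 0.0514. Olfr763 of MOR269, the first gene of the cluster, had 0.845, 0.618 and 0.589 CPM in 5x21-OR1A1 and 1.49, 2.53 and 1.80 CPM in wild-type (-1.49, SE 0.29, adjusted p = 0.0404). Olfr821 of MOR109 had 1.06, 1.06 and 0.958 CPM in 5x21-OR1A1 and 1.84, 2.75 and 2.97 CPM in wild-type (-1.29, SE 0.25, adjusted p = 0.0374). These 2 were lower in the fewest of 16 settings tried, Olfr763 in 9 and Olfr821 in 7, and with 1 library left out both passed only without wild-type library 1, their adjusted p otherwise being 0.0768 to 0.180. With sex as a covariate the adjusted p was 0.0690 for Olfr763 and 0.0805 for Olfr821, and scaled to mature neuron markers that of Olfr821 was 0.0632. Olfr9, which shares sequence with Olfr763, had 1.28, 2.02 and 1.10 CPM in 5x21-OR1A1 and 2.35, 3.76 and 1.94 CPM in wild-type. These values of Olfr9 overlapped and it did not pass (log2 fold change -0.87, SE 0.33, adjusted p = 0.234). The remaining singletons did not pass: Olfr767 of MOR115 at -1.38, Olfr807 of MOR117 at -1.23, Olfr820 of MOR116 at 0.29 and the unnamed Olfr765 at -1.17. Olfr767 and Olfr765 reached 10 counts in every library of wild-type only.

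**Figure D3:**
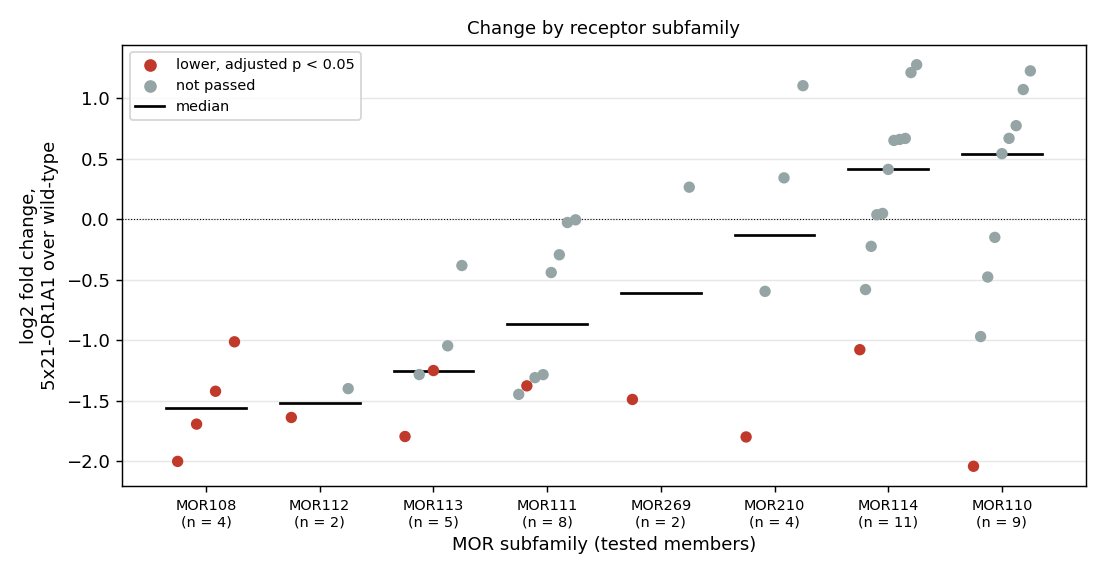
Log2 fold change of each tested receptor, 5x21-OR1A1 over wild-type, by MOR subfamily; red points passed the edgeR test and short bars are medians. MOR108, MOR111, MOR112 and MOR113 lie wholly below 0 at TMM scaling (MOR108 and MOR112 also when scaled to mature neuron markers), while MOR114 and MOR110 run from -1.08 and -2.04 to 1.28 and 1.22.

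The median difference was larger toward the distal end of the cluster. Among the first 19 members by position, 15 were tested, 1 was lower, and the median log2 fold change was 0.05. Among the middle 19, 18 were tested, 4 were lower, and the median was -0.53. Among the last 19, 18 were tested, 9 were lower, and the median was -1.15. Scaled to mature neuron markers these medians were 0.72, 0.15 and -0.46, so the middle one turned sign and the order held. The difference between these parts was not tested, and how many members pass also depends on abundance, which differed between them. The last 19 summed to 38.4, 40.2 and 38.4 CPM in 5x21-OR1A1 and 76.1, 95.2 and 68.6 CPM in wild-type, while the first 19 summed to 17.3, 17.3 and 15.7 CPM in 5x21-OR1A1 and 12.3, 13.7 and 19.2 CPM in wild-type. At TMM scaling, from Olfr807 to Olfr819, 12 tested members in a row were below 0 and 7 of them passed. From Olfr785 to Olfr794, 9 in a row were below 0 and 2 passed, and the longest run above 0 was the 4 tested members from Olfr777 to Olfr784. Olfr785 and Olfr790 in the run of 9 reached 10 counts in every library of wild-type only. Olfr780 and Olfr782 in the run of 4 did so in 5x21-OR1A1 only. Position and subfamily overlap, since MOR114 fills much of the first part and MOR108, MOR112 and MOR113 much of the last, and their parts were not tested apart. Members on the plus strand had a median of -0.80 and those on the minus strand -0.38.

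**Figure D4:**
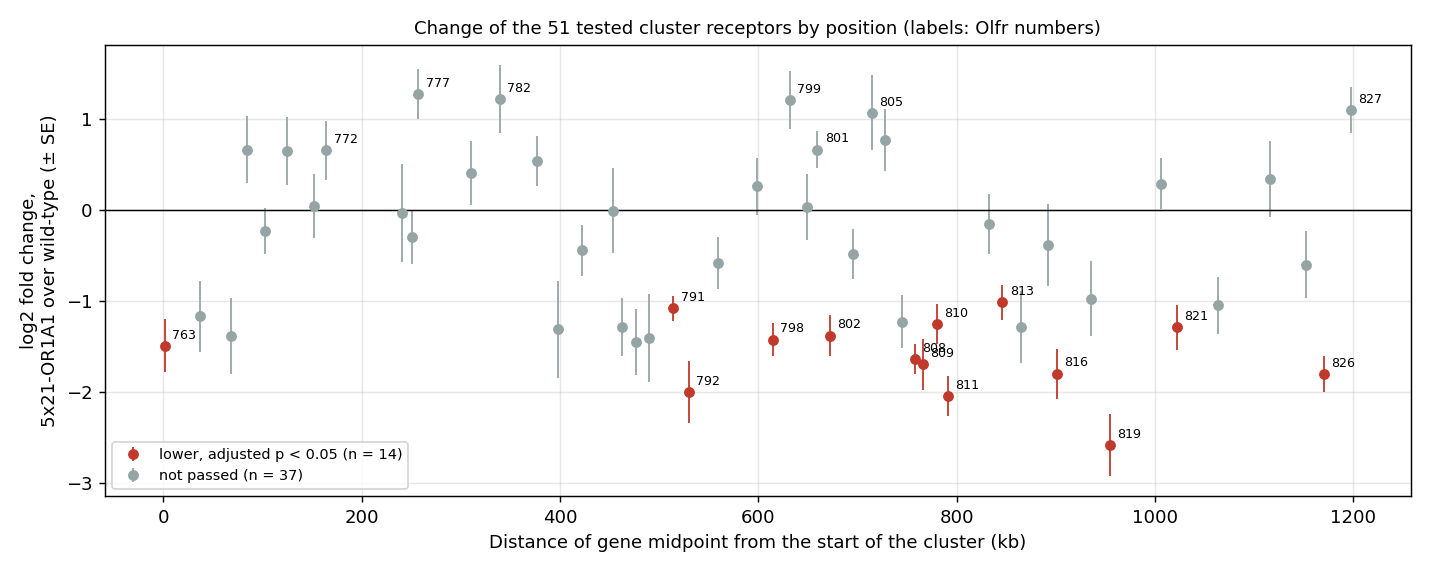
Log2 fold change with standard error of each tested receptor against its distance from the start of the cluster in kilobases, 5x21-OR1A1 over wild-type; red points passed the edgeR test. Calls gather in the distal part, with 9 of 14 among the last 19 members. These are also more abundant in wild-type than the first 19 (68.6 to 95.2 against 12.3 to 19.2 CPM summed), which bears on how many can pass.

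Beside the cluster, no flanking gene that is not a receptor passed the test. Genes of the receptor families were left out of the flanks. On the proximal side, Itga7 (an integrin subunit), Bloc1s1, Rdh5 (a retinol dehydrogenase) and Cd63 (a tetraspanin) had log2 fold changes of -0.32, -0.11, -0.23 and -0.06, and 0 of these 4 passed with edgeR, with 0 at an unadjusted p under 0.05 and 0 by DESeq2 or limma-voom. Mettl7b on that side had too few counts to test, as did Neurod4 and Tespa1, the 2 annotated non-receptor coding genes beyond the distal end. Whether members and flanking genes differ was not tested.

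Levels per kilobase of exon allow members to be ranked against one another. In wild-type tissue the order began with Olfr813 at 3.95 and Olfr791 at 3.93 CPM per kb, followed by Olfr811 at 3.01, Olfr812 at 2.54 and Olfr810 at 2.51. In 5x21-OR1A1 tissue it began with Olfr812 at 2.29, Olfr813 at 1.96, Olfr791 at 1.86, Olfr799 at 1.64 and Olfr794 at 1.17 CPM per kb. Thus Olfr811 ranked 12th in 5x21-OR1A1 and 3rd in wild-type, and Olfr799 ranked 4th in 5x21-OR1A1 and 22nd in wild-type. The 5 members of most counts in a library supplied 25.6, 25.4 and 26.4% of its cluster counts in 5x21-OR1A1, against 36.3, 35.2 and 30.0% in wild-type. The neighbours in each order were close: Olfr813 and Olfr791 in wild-type tissue differed by less than the spread between libraries.

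**Figure D5:**
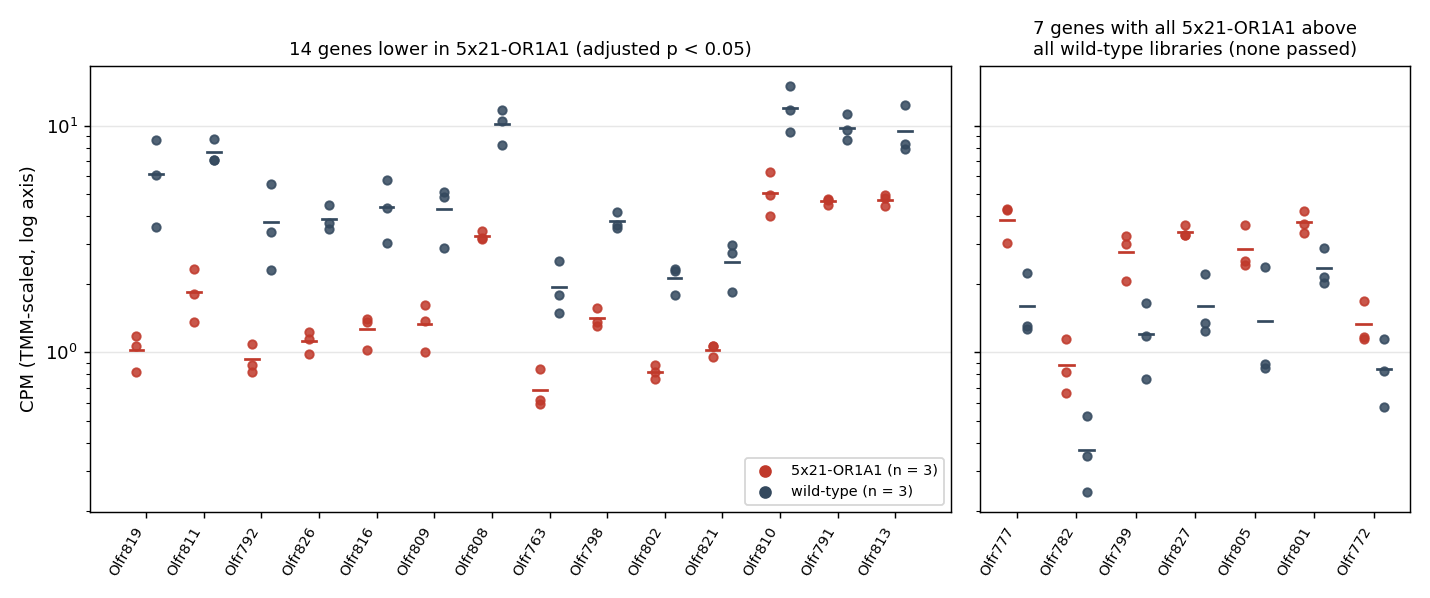
CPM in each library, on a log axis, of the 14 receptors that were lower and of the 7 chosen because all 5x21-OR1A1 values lay above all wild-type values, none of which passed; 5x21-OR1A1 points stand left of wild-type points for each gene. Relative to their mean, wild-type values spread more than 5x21-OR1A1 values in 12 of the 14 and in each of the 7. In Olfr819, for example, wild-type values ran from 3.60 to 8.65 CPM. Olfr798 and Olfr811 showed the reverse.

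The wild-type libraries varied more among themselves than the 5x21-OR1A1 libraries did. The median coefficient of variation over the 51 tested members was 0.190 in 5x21-OR1A1 and 0.349 in wild-type, where counting alone would give 0.159 and 0.142, and it was larger in wild-type for 44 members. Wild-type library 3 was the highest or lowest of its group in 43 of 51 members: it was the lowest wild-type library in 10 of the 14 lower receptors and the highest in 13 of the 17 with fold changes above 0. Outside the cluster it was the highest or lowest in 595 of 719 other class II receptors. In a group of 3 only 1 library lies between the others, so any library is often highest or lowest. Wild-type library 1 was the lowest of its group in 24 of the 51 members, against 17 for wild-type library 3. In the 14 lower receptors, wild-type library 2 was the highest of its group in 12 and the lowest in 0. In the 17 with fold changes above 0, wild-type library 2 was the highest in 3 and the lowest in 7. Leaving wild-type library 3 out gave 12 lower and 3 higher calls, the higher ones being Olfr777, Olfr805 and Olfr827. Over all genes that fit gave 369 lower and 79 higher calls. The count of lower members fell further without a 5x21-OR1A1 library: 4, 5 and 4 members were lower without 5x21-OR1A1 library 1, 2 and 3, and 9 without wild-type library 2. Lower calls over all genes also fell, from 423 to 136, 152 and 136 without these 5x21-OR1A1 libraries and to 262 without wild-type library 2. Olfr808, Olfr811 and Olfr826 were lower whichever single library was left out.

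Other gene groups changed in the same libraries, and their part in the receptor values was not tested. Among the 15 mature neuron markers, 5 were lower and 0 higher, at a median log2 fold change of -0.66. Among 12 markers of immature neurons 4 were higher and 0 lower, at a median of 0.42. Their growth-associated protein Gap43 had 176, 191 and 183 CPM in 5x21-OR1A1 and 91.7, 117 and 111 CPM in wild-type (0.78, SE 0.10, adjusted p = 0.00845). Among 10 progenitor markers 6 were higher and 0 lower, at a median of 0.63, with the neurogenic transcription factor Insm1 at 0.97 (SE 0.13, adjusted p = 0.00896). Summed levels were 2220 to 2431 CPM in 5x21-OR1A1 and 1704 to 2013 CPM in wild-type for immature markers, and 447 to 521 CPM in 5x21-OR1A1 and 352 to 443 CPM in wild-type for progenitor markers. For other cells of the epithelium, 0 of 7 sustentacular, 7 ciliated, 7 gland and 8 glial, endothelial and erythrocyte genes tested passed with edgeR. Of the 2 untested sustentacular genes, Muc2 was at 0 in every library and Ugt2a1 had at most 7 counts.

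Those lists held, at an unadjusted edgeR p under 0.05, 1 sustentacular gene lower, 2 ciliated genes higher, 2 gland genes higher and 0 of the last list. DESeq2 called 1 sustentacular gene lower and 1 ciliated gene higher, and limma-voom called 0 of them. Summed levels were 16596 to 17351 CPM in 5x21-OR1A1 and 17792 to 19233 CPM in wild-type for sustentacular genes, and 550 to 572 CPM in 5x21-OR1A1 and 442 to 544 CPM in wild-type for ciliated genes. Gland genes ranged from 44853 to 85120 CPM in 5x21-OR1A1 and from 48502 to 75429 CPM in wild-type, and the last list from 457 to 957 CPM in 5x21-OR1A1 and from 649 to 1441 CPM in wild-type. Of 25 genes of receptor choice and receptor trafficking, 2 were lower and 0 higher, at a median of 0.03. They were Ebf4, an Olf/EBF transcription factor (-0.74, SE 0.11, adjusted p = 0.0162), and Ric8b, a chaperone and exchange factor of the olfactory G protein (-0.74, SE 0.13, adjusted p = 0.0285).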

How the data were processed

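RNA was measured in 3 libraries of 5x21-OR1A1 and 3 of wild-type epithelium, grouped by the genotype in the labels. Per the labels' protocols, the libraries were nonstranded TruSeq libraries of poly-A RNA, read from 1 end over 100 bases. The deposited values are raw counts per gene symbol, not normalized. The submitters' processing notes name TopHat2 2.1.1, HTSeq 0.9.1 and the build GRCm38.p5. The annotation release is not given in the sources used here, nor is the handling of reads that match several genes. Because strand was not kept, reads of overlapping genes cannot be told apart, and Olfr772 overlaps Gm25807 and Olfr825 overlaps Gm48514.

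The count test was edgeR 4.0.16 (R 4.3.3), quasi-likelihood on genotype after TMM scaling and the default filter by group, which asks for a count of 10 and a total of 15. P-values were adjusted by Benjamini-Hochberg over all 19267 genes that passed the filter. A gene passed, and is called lower or higher, at an adjusted p under 0.05. Adjusted p-values in the results are from edgeR unless another tool is named. Fold changes are 5x21-OR1A1 over wild-type, and their standard error is the size over the square root of F. The fit was tested on simulated data with known changes. Library totals ran from 27506217 to 35804712 counts. Libraries of a group were not duplicates of one another by a chi-square comparison. Class I receptors were Olfr543 to Olfr699 with Olfr33 and Olfr78, and the other numbered Olfr genes without a pseudogene suffix were class II. This rule is not exact. Of 961 class II genes with a MOR name, 11 were in the class I families up to 42. Of 122 class I genes with a MOR name, 7 were in families above 42.

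Coordinates and sequences are from GENCODE vM21 (GRCm38), and MOR names from RefSeq synonyms (GRCm38.p6), matched by symbol. Coding identity is from pairwise alignment with Biopython 1.88. The members and gene lists were chosen with earlier results of these data known. Named members are those that passed, the 5 most abundant in wild-type by CPM, the 3 highest and 3 lowest fold changes, and the 2 nearest each end. Other members were named after their values were seen. Outside the cluster, Omp, up to 3 passing genes of each list and the nearest flanking non-receptor coding genes were named. The labels do not say whether replicate numbers pair the libraries, and the main fit had no such block. Alternatives were DESeq2 1.42.0 size factors and its test, library totals, scaling to mature neuron markers, no filter or 1 CPM in 3 libraries, limma-voom 3.58.1, the replicate number or sex as a term, a threshold of 0.01 on the adjusted p, and fits without 1 library.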

Additional observations from a re-analysis of the deposited data

How the results depend on the processing

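Against 14 members lower, there were 7 with the replicate number as a block, 9 with sex as a covariate (2 of 3 5x21-OR1A1 and 1 of 3 wild-type libraries were female by Xist and Ddx3y), 6 at an adjusted p under 0.01, and 4 to 16 when 1 library was left out. The labels do not say whether replicate numbers pair the libraries. Deviations of same-numbered libraries correlated at -0.33, 0.07 and -0.17, which with so few libraries cannot decide it. Against 0 higher members, there was 1 with library totals (Olfr777), 2 without the filter and 2 with limma-voom (Olfr777 and Olfr827), 3 with DESeq2 (Olfr799 added) and 0 to 3 when 1 library was left out. Over all genes there were 423 lower calls in the main fit, 323 with the block, 237 with sex and 136 to 472 without 1 library. Higher calls over all genes were 100 in the main fit, 89 with library totals and 163 of 31413 without the filter. They were 105 with limma-voom, 310 with DESeq2 and 14 to 154 without 1 library. With mature neuron markers as the scale there were 11 lower and 15 higher members, while 14310 of all 19267 genes were higher and 257 lower, the cluster's median was 0.11, against 0.05 for the other class II receptors, and its summed log2 ratio was -0.016. Leaving out 1 library gave a median of -0.85 to -0.49 and a summed ratio of -0.78 to -0.63. As a share of all receptors rather than of class II, the cluster's log2 ratio was 0.12 (SE 0.05, 3.79% in 5x21-OR1A1, 3.49% in wild-type). These shares of 3.71, 3.87 and 3.81% in 5x21-OR1A1 and 3.65, 3.25 and 3.58% in wild-type did not overlap. That total also holds class I receptors, whose summed log2 ratio was -1.47 (SE 0.18), against -0.66 (SE 0.14) for class II. The class II share gave -0.07 to 0.01 when 1 library was left out. None of the 19 members named by the rule reversed direction under the alternatives run, but others near 0 did, among them 2 MOR111 receptors with library totals. Counted over 16 settings, the main one included, Olfr808, Olfr811 and Olfr826 were lower in each of the 16, Olfr763 in 9 and Olfr821 in 7. Receptors with fewer than about 10 counts a library could not be tested.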

Other observations

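Neighbouring rows outside the rule, looked at after the members' values were known, held 2 more receptors that were lower in 5x21-OR1A1. Olfr764-ps1 and Olfr766-ps1 lie between Olfr763 and Olfr767 and are protein-coding in GENCODE vM21 in spite of the suffix. Olfr764-ps1 had 0.354, 0.240 and 0.331 CPM in 5x21-OR1A1 and 1.78, 2.36 and 1.25 CPM in wild-type (log2 fold change -2.52, SE 0.34, edgeR adjusted p = 0.00963). Olfr766-ps1 had 0.736, 0.858 and 1.10 CPM in 5x21-OR1A1 and 3.27, 4.01 and 3.67 CPM in wild-type (-2.03, SE 0.22, adjusted p = 0.00435). The groups did not overlap for either, so the first part of the chromosome 10 array, where 1 of 15 tested members was lower, also held these 2 lower genes. The other 5 rows with a pseudogene suffix between Olfr763 and Olfr827 had at most 4 counts in any library and were not tested.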
